A study of Mus musculus with 16 samples.

Results

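Ceacam1, Ceacam2, Gprc5a and Slc26a9 encode membrane proteins of epithelial cell surfaces, and they were followed here in mouse pancreas after repeated cerulein injection. The 4 genes, of 24019 in the count table, were chosen on measured values of these libraries, since their levels were much higher after cerulein in wild-type (WT) mice and less so in Adam17ex/ex mice. Every contrast that involves the cerulein response is therefore given for them as a description, without a p-value. All 4 passed the filter on low counts that left 8236 genes for testing, Ceacam2 and Gprc5a only through the WT cerulein libraries, where they were high.

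The tissue was taken from age-matched littermates of 6 to 8 weeks, either C57BL/6J WT or Adam17ex/ex, which carry the hypomorphic Adam17ex allele. There were 4 groups of 4 libraries, namely Adam17ex/ex given cerulein, Adam17ex/ex given phosphate-buffered saline (PBS), WT given cerulein and WT given PBS. Cerulein, an analogue of the hormone cholecystokinin that overstimulates the enzyme-secreting acinar cells, was injected into the peritoneum hourly, 7 times at 50 µg per kg, and PBS at 50 µl served as the control; all mice were culled 1 h after the last injection. Males gave 2 Adam17ex/ex cerulein, 2 Adam17ex/ex PBS, 1 WT cerulein and 0 WT PBS libraries. The labels also carry a code of unstated meaning, whose range in the WT cerulein libraries holds no other library, so the code and that group cannot be told apart.

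ADAM17 is a membrane-bound protease that sheds the ectodomains of cell-surface proteins, among them ligands of the EGF receptor, tumour necrosis factor and the interleukin-6 receptor. CEACAM1 is an adhesion molecule of the immunoglobulin superfamily, found on the apical side of many epithelia and on endothelial cells and leukocytes, whose long cytoplasmic tail carries inhibitory motifs that recruit tyrosine phosphatases; CEACAM2 is its close relative in mice. GPRC5A is an orphan receptor with a heptahelical fold, first known as a gene induced by retinoic acid, and mice that lack it develop lung tumours. SLC26A9 is an epithelial chloride channel or transporter, prominent in stomach and airway, that acts beside the CFTR channel in fluid and bicarbonate secretion.

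In the coordinates of the count table (build GRCm38), Ceacam1 (ENSMUSG00000074272) lies on chromosome 7 at 25461707 to 25477603 and Ceacam2 (ENSMUSG00000054385) on the same chromosome at 25516042 to 25539857. Gprc5a (ENSMUSG00000046733) lies on chromosome 6 at 135065651 to 135084709, and Slc26a9 (ENSMUSG00000042268) on chromosome 1 at 131744022 to 131771504. All 4 are annotated as protein-coding. The 250 bases upstream of the start annotated in RefSeq are shown for 3 of the genes, because they show how alike the neighbours Ceacam1 and Ceacam2 are there and what the unlinked Slc26a9 holds. The sequences are from RefSeq (GRCm38.p6), written 5′ to 3′ on the gene's strand; the windows are chr7:25477626-25477875 (minus strand) for Ceacam1, chr7:25540005-25540254 (minus strand) for Ceacam2 and chr1:131743772-131744021 (plus strand) for Slc26a9. Capitals mark the stretch that aligns between Ceacam1 and Ceacam2 and, in Slc26a9, overlapping matches of the TATA box.
Ceacam1: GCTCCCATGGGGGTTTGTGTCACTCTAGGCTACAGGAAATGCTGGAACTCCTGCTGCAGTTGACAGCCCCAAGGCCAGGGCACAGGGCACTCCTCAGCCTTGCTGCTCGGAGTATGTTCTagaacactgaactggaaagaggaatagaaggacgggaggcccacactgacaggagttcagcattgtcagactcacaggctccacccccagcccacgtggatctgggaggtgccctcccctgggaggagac
Ceacam2: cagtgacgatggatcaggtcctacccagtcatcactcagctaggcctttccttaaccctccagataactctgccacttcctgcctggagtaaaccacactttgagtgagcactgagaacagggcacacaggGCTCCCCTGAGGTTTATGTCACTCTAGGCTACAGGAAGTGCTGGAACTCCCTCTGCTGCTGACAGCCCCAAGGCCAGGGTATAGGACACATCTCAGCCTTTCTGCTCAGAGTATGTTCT
Slc26a9: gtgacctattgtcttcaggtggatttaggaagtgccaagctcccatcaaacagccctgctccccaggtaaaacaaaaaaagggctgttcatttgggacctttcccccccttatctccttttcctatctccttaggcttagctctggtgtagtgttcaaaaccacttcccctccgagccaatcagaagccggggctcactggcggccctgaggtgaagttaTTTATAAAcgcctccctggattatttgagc

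The capital stretches of Ceacam1 and Ceacam2 had 104 identical positions over an aligned length of 120, an identity of 86.7%. In Ceacam2 the stretch ended 1 base before the RefSeq start, and in Ceacam1 it lay 250 to 131 bases before it. For both genes the RefSeq start differs from the gene end in the coordinates above, so this offset depends on the annotation. The stretch reaches an edge of each window, so the windows bound its length. Slc26a9 held the TATA box (TATAAA) on both strands, 30 to 25 bases before its start on the minus strand and 28 to 23 on the plus strand, overlapping each other. That motif was found in 12.4% of the 32851 mouse promoter windows of the same length. On either strand, 5 other motifs had no match in the 3 windows, namely AP-1 (TGANTCA, in 6.75% of all windows), CRE (TGACGTCA, 1.55%), STAT (TTCNNNGAA, 7.02%), the heat shock element (GAANNTTC, 6.69%) and the GC box (GGGCGG, 32.7%). A missing match says only that these letters are not in these windows.

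Levels are given as TMM-scaled CPM (counts scaled to the library's size) of unique molecular identifiers (UMIs), the random tags that mark single cDNA molecules. A library held 455547 to 1476159 UMIs, so that 1 UMI was worth 0.681 to 2.60 CPM. The Adam17ex/ex PBS replicates 1 to 3 stood apart as shallow, with 455547 to 492878 UMIs against at least 859573 in the other 13, and 7.84 to 9.02% of their UMIs fell on the ribosomal RNA gene CT010467.1, against 2.02 to 5.04% elsewhere. Members' values and list counts that rest on Adam17ex/ex PBS are given below with and without these 3. The targeted gene Adam17 had 15 UMIs over the Adam17ex/ex cerulein libraries against 68 over the WT cerulein libraries. It had 10 over the Adam17ex/ex PBS against 41 over the WT PBS libraries, not scaled to depth. Its levels in the 2 genotypes did not overlap under cerulein. Under PBS they overlapped, at 2.58 to 6.03 CPM in Adam17ex/ex and 5.25 to 14.1 CPM in WT libraries.

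Ceacam1 was high in WT cerulein pancreas and low in the other 3 groups. Its levels in replicates 1 to 4 were 21.1, 26.7, 21.6 and 22.5 CPM in Adam17ex/ex cerulein, 28.6, 23.2, 40.2 and 25.3 CPM in Adam17ex/ex PBS, 292, 198, 160 and 185 CPM in WT cerulein, and 24.7, 32.0, 26.2 and 25.7 CPM in WT PBS libraries. The lowest WT cerulein library stood far above the highest of any other group, while the other 3 groups overlapped one another. The means were 22.96 ± 2.53 CPM in Adam17ex/ex cerulein, 29.3 ± 7.57 CPM in Adam17ex/ex PBS, 209 ± 57.6 CPM in WT cerulein and 27.2 ± 3.30 CPM in WT PBS libraries (SD, n = 4 each). From highest to lowest, WT cerulein was followed by Adam17ex/ex PBS, WT PBS and Adam17ex/ex cerulein. Each of the last 3 overlapped its neighbour, although Adam17ex/ex cerulein replicates 1, 3 and 4 lay below every PBS library of either genotype.

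Ceacam2 showed the same pattern at fewer UMIs. Its UMIs in replicates 1 to 4 were 6, 8, 3 and 6 in Adam17ex/ex cerulein, 3, 0, 4 and 6 in Adam17ex/ex PBS, 81, 26, 56 and 53 in WT cerulein, and 1, 13, 6 and 3 in WT PBS libraries. Mean levels were 5.28 ± 1.70 CPM in Adam17ex/ex cerulein, 5.47 ± 3.75 CPM in Adam17ex/ex PBS, 46.5 ± 19.0 CPM in WT cerulein and 5.21 ± 3.64 CPM in WT PBS libraries (SD, n = 4 each). The WT cerulein libraries, at 28.8 to 73.3 CPM, did not overlap any other group, whose highest value was 9.68 CPM, and the means of the other 3 groups lay within 1 SD of one another.

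Gprc5a was close to the detection limit everywhere except in WT cerulein pancreas. It had 0, 3, 3 and 8 UMIs in Adam17ex/ex cerulein, 0, 1, 0 and 2 UMIs in Adam17ex/ex PBS, 61, 32, 58 and 12 UMIs in WT cerulein, and 2, 1, 0 and 1 UMIs in WT PBS libraries. The WT cerulein libraries differed widely among themselves, with replicate 4 at 9.92 CPM and the other 3 at 35.4 to 55.2 CPM, but all 4 stood above the highest value elsewhere, 5.45 CPM in Adam17ex/ex cerulein replicate 4. Group means were 2.93 ± 2.27 CPM in Adam17ex/ex cerulein, 1.15 ± 1.35 CPM in Adam17ex/ex PBS, 35.5 ± 19.0 CPM in WT cerulein and 1.08 ± 0.986 CPM in WT PBS libraries (SD, n = 4 each). Below the WT cerulein level the order was Adam17ex/ex cerulein, Adam17ex/ex PBS and WT PBS, each neighbour overlapping the next.

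Slc26a9 was the member whose WT cerulein libraries were most alike. Its levels in replicates 1 to 4 were 15.8, 21.3, 14.4 and 22.5 CPM in Adam17ex/ex cerulein, 15.6, 10.3, 4.02 and 1.01 CPM in Adam17ex/ex PBS, 132, 172, 165 and 158 CPM in WT cerulein, and 2.35, 4.47, 4.20 and 6.13 CPM in WT PBS libraries. The Adam17ex/ex cerulein libraries stood above all WT PBS libraries and, in 3 of 4, above all Adam17ex/ex PBS libraries. The spread in Adam17ex/ex PBS rests on 6, 4, 2 and 1 UMIs, and its highest values are those of shallow libraries. Means were 18.5 ± 3.99 CPM in Adam17ex/ex cerulein, 7.74 ± 6.52 CPM in Adam17ex/ex PBS, 157 ± 17.4 CPM in WT cerulein and 4.29 ± 1.55 CPM in WT PBS libraries (SD, n = 4 each), so that WT cerulein was followed by Adam17ex/ex cerulein, Adam17ex/ex PBS and WT PBS. Each of the last 3 overlapped its neighbour, and Adam17ex/ex cerulein did not overlap WT PBS.

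**Figure D1:**
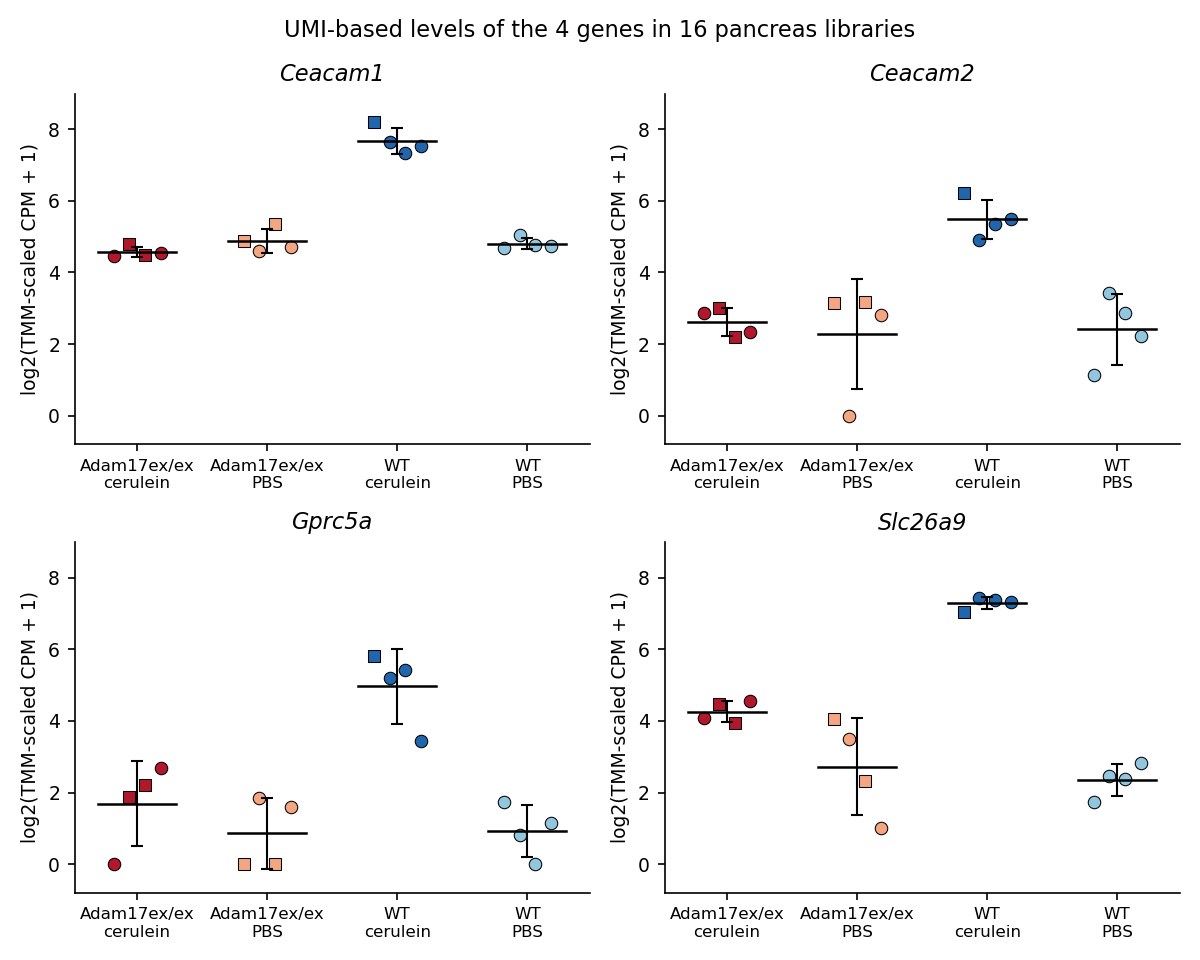
Levels of Ceacam1, Ceacam2, Gprc5a and Slc26a9 in 16 pancreas libraries, as log2(TMM-scaled CPM + 1) on the vertical axis and the 4 groups on the horizontal axis; circles are female and squares male mice, in replicate order from left to right, and the line and bar give the mean ± SD (n = 4). In every panel the 4 WT cerulein libraries lie above all others, and only for Slc26a9 do the Adam17ex/ex cerulein libraries lie above all WT PBS libraries.

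The size of the cerulein response in WT pancreas is what the genes were chosen by. On the log2 scale of the edgeR fit, the difference between WT cerulein and WT PBS was 2.77 ± 0.18 (SE) for Ceacam1, 2.77 ± 0.37 for Ceacam2, 4.78 ± 0.67 for Gprc5a and 5.17 ± 0.33 for Slc26a9. Ranked among the 8236 tested genes from the highest down, Slc26a9 was at place 4, Gprc5a at 10, Ceacam1 at 109 and Ceacam2 at 111. All 4 were called higher in this contrast (edgeR, Benjamini-Hochberg adjusted p under 0.05), as were 19.8% of all tested genes, and nothing is read from a count that the choice fixes. For Gprc5a the ratio of pooled, depth-scaled UMIs, 163 in WT cerulein against 4 in WT PBS, was 35 with an exact 95% Poisson interval of 13.4 to 130, which covers counting error only.

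In Adam17ex/ex pancreas the 4 genes parted. Ceacam1 and Ceacam2 were not higher after cerulein, with differences between Adam17ex/ex cerulein and Adam17ex/ex PBS of -0.34 ± 0.22 and -0.14 ± 0.56 (log2 ± SE), and 95% intervals of -0.82 to 0.14 for Ceacam1 and -1.37 to 1.08 for Ceacam2. Without the 3 shallow libraries these differences were -0.35 ± 0.34 for Ceacam1 and -0.57 ± 0.77 for Ceacam2, and the sign for Ceacam2 turned in some other settings. Gprc5a, at 1.15 ± 1.06, had an interval of -1.19 to 3.49 that is too wide to place it. Slc26a9 was higher by 1.63 ± 0.44, the only member among the 14.1% of genes called higher in this contrast. The choice also used this contrast, so nothing is read from that call. The value for Slc26a9 rests on which Adam17ex/ex PBS libraries are used, being 4.20 ± 0.71 without the shallow replicates 1 to 3, when replicate 4 alone remains and is assumed to vary like the other groups, 2.35 without replicate 1 and 0.99 without replicate 4. The same holds for Gprc5a, at 0.28 ± 1.35 without the shallow libraries, 2.04 without Adam17ex/ex PBS replicate 4 and 0.40 without Adam17ex/ex cerulein replicate 4.

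Under cerulein, the level in Adam17ex/ex pancreas was 11% of the WT level for Ceacam1, 11.4% for Ceacam2, 8.25% for Gprc5a and 11.8% for Slc26a9. In the fit, the difference between Adam17ex/ex cerulein and WT cerulein was -3.26 ± 0.18 for Ceacam1, -3.25 ± 0.36 for Ceacam2, -3.53 ± 0.52 for Gprc5a and -3.02 ± 0.26 for Slc26a9 (log2 ± SE). These are places 8, 9, 6 and 10 from the lowest of 8236 genes. The groups did not overlap for any member, which the choice favours, and the share of all genes without overlap was not counted. All 4 were called lower, as were 3.85% of tested genes, again as the choice implies. This contrast does not involve the shallow libraries, and without them it was -3.24 for Ceacam1, -3.25 for Ceacam2, -3.55 for Gprc5a and -2.97 for Slc26a9.

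The difference between the responses, Adam17ex/ex minus WT, was -3.11 ± 0.29 for Ceacam1, -2.91 ± 0.72 for Ceacam2, -3.63 ± 1.70 for Gprc5a and -3.54 ± 0.67 for Slc26a9 (log2 ± SE). All but Gprc5a were among the 2.27% of genes called lower, and the 95% interval of Gprc5a was -7.37 to 0.11. The genes were chosen on this difference, so nothing is read from these calls. Without the 3 shallow libraries the value held for Ceacam1, at -3.12 ± 0.39, but Slc26a9 came to -1.0 ± 1.46 and was not called, Ceacam2 to -3.33 ± 0.93 and was not called, and Gprc5a to -4.46 ± 2.11. On the log2 scale, the smaller Slc26a9 response in Adam17ex/ex pancreas thus rests on shallow PBS libraries, whereas its lower level under cerulein does not. The fit without them rests on 1 UMI of Slc26a9 in Adam17ex/ex PBS replicate 4. In CPM, with all libraries, the mean rise of Slc26a9 was 10.8 in Adam17ex/ex against 152 in WT.

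**Figure D2:**
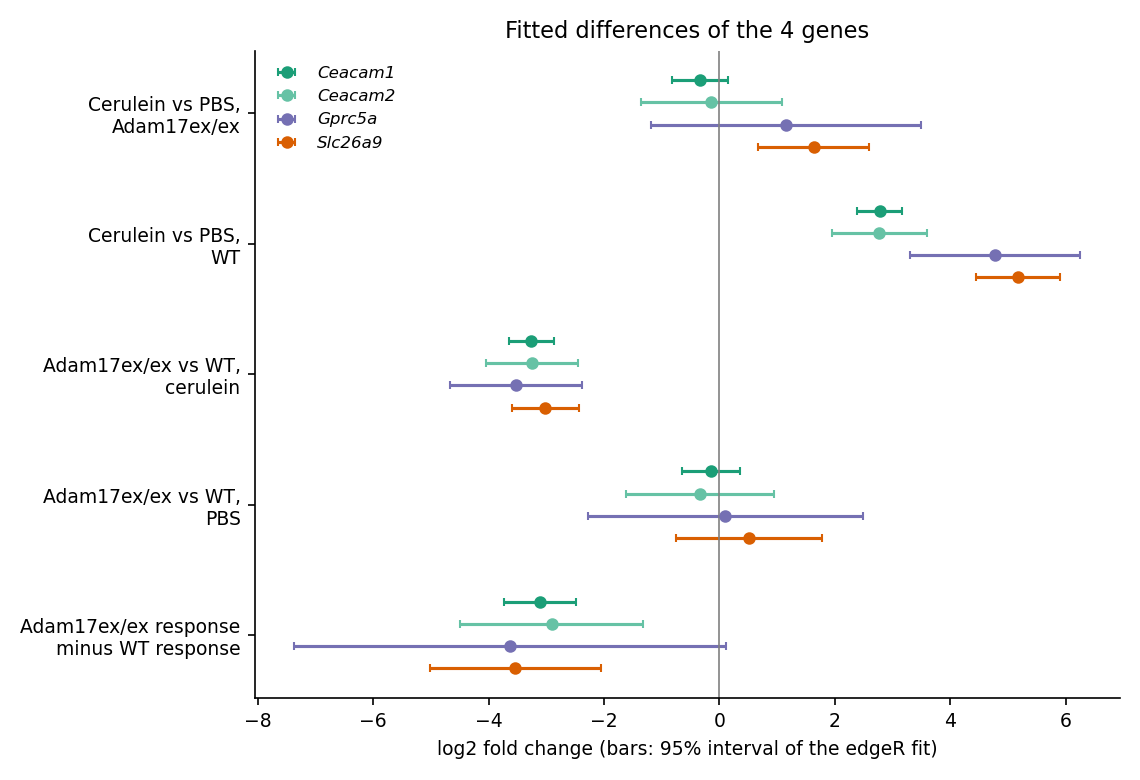
Fitted log2 fold changes of the 4 genes (horizontal axis) in 5 contrasts (vertical axis), each with its 95% interval from the edgeR fit over 16 libraries. The intervals lie right of 0 for all genes in WT, left of 0 for all genes in the genotype contrast under cerulein, and across 0 for all genes under PBS; in Adam17ex/ex the interval of Slc26a9 alone, at 0.67 to 2.59, lies clear of 0.

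The choice did not use the genotype contrast under PBS, although its libraries also enter the contrasts that it did use. No member was called there. The difference between Adam17ex/ex PBS and WT PBS was -0.15 ± 0.23 for Ceacam1 (edgeR adjusted p = 0.814), -0.34 ± 0.58 for Ceacam2 (edgeR adjusted p = 0.834), 0.10 ± 1.08 for Gprc5a (edgeR adjusted p = 0.986) and 0.52 ± 0.57 for Slc26a9 (edgeR adjusted p = 0.711). The ranges of the 2 groups overlapped for all 4 genes. Over all genes, 0.631% were called higher and 0.729% lower. The 95% interval was -0.65 to 0.36 for Ceacam1 and -1.63 to 0.94 for Ceacam2, and those of Gprc5a, -2.28 to 2.48, and Slc26a9, -0.75 to 1.78, were wide. Without the shallow libraries Ceacam1 was at -0.13 ± 0.32, Ceacam2 at 0.083 ± 0.73, Gprc5a at 0.91 ± 1.62 and Slc26a9 at -1.97 ± 0.91 in this contrast, none of them called.

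Sex was not used in the choice either, although the same libraries enter the contrasts that it did use. Ceacam2 and Gprc5a passed the filter only through WT cerulein, a group with 1 male, and WT PBS held 0 males. Their sex values are therefore not free of the choice. With sex as a covariate, males exceeded females by 0.48 ± 0.16 for Ceacam1 (edgeR adjusted p = 0.927) and 0.76 ± 0.32 for Ceacam2 (edgeR adjusted p = 0.943), by 0.56 ± 0.48 for Gprc5a (edgeR adjusted p = 0.95) and by -0.09 ± 0.26 for Slc26a9 (edgeR adjusted p = 0.99). None was called, and 0.0729% of all genes were. The 1 male among the WT cerulein mice, replicate 1, had the highest Ceacam1, Ceacam2 and Gprc5a levels of its group and the lowest Slc26a9 level, and without it the sex value was 0.30 for Ceacam1, 0.43 for Ceacam2, -0.50 for Gprc5a and 0.17 for Slc26a9.

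Ceacam1 and Ceacam2 can share reads, so their separate values depend on how the authors' counting assigned them, which is not given in the sources used here. Between their longest GENCODE M21 transcripts the last 500 bases, where poly(A)-primed reads gather, were 99.2% identical with a shared run of 476 bases. Of the distinct words of 101 bases, the read length, in the last 500 bases of all their transcripts, 25.8% of those of Ceacam1 also occurred in Ceacam2 and 44.7% of those of Ceacam2 in Ceacam1. The share of Ceacam2 in the UMIs of both genes was 18.5% in Adam17ex/ex cerulein (95% exact binomial interval 12.1 to 26.5%, 23 of 124 UMIs), 16.7% in Adam17ex/ex PBS (9.18 to 26.8%, 13 of 78), 18.5% in WT cerulein (16.3 to 20.9%, 216 of 1166) and 17.3% in WT PBS libraries (11.3 to 24.8%, 23 of 133). The share was thus nearly the same at low and at high levels of the pair, and the intervals, which cover counting error only, overlapped in all groups. Whether Ceacam2 UMIs stem from Ceacam2 transcripts cannot be told from these counts.

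**Figure D3:**
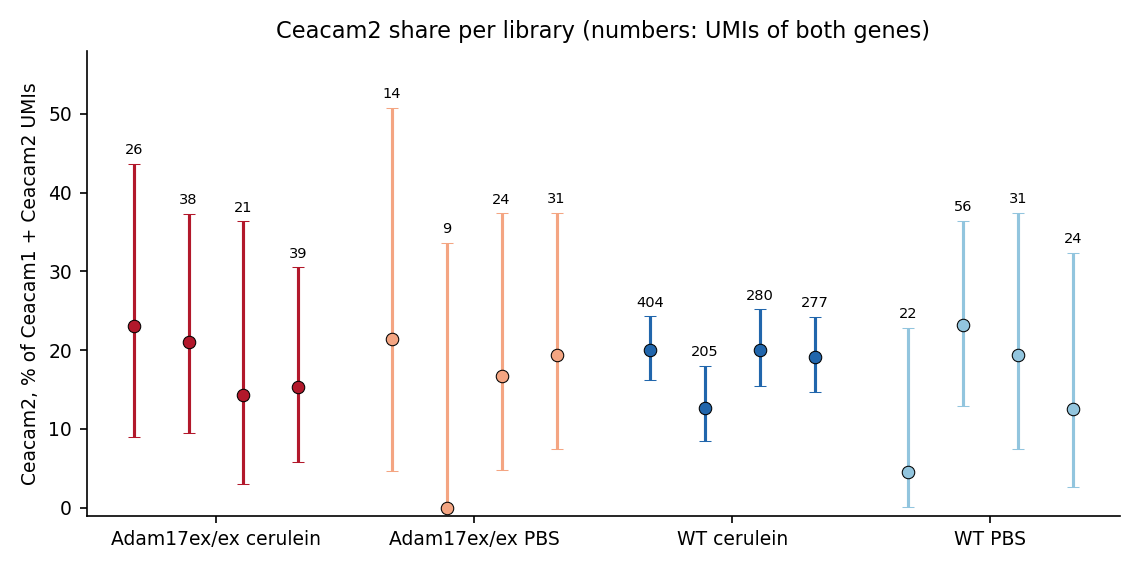
Share of Ceacam2 in the UMIs of Ceacam1 and Ceacam2 together (vertical axis, %) in each of 16 libraries, ordered by group and replicate; bars are exact 95% binomial intervals and the numbers above them are the UMIs of both genes. The shares lie between 0 and 23.2%, and the narrow intervals of WT cerulein, the group with 205 to 404 UMIs a library, overlap those of all other libraries.

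The sum of the pair does not depend on which of the 2 genes a shared read was given to, although it would on whether such reads were kept. It was 28.2 ± 3.79 CPM in Adam17ex/ex cerulein, 34.8 ± 10.5 CPM in Adam17ex/ex PBS, 255 ± 74.4 CPM in WT cerulein and 32.4 ± 6.79 CPM in WT PBS libraries (SD, n = 4 each). Its fitted differences, 2.79 ± 0.19 for cerulein in WT, -0.29 ± 0.22 for cerulein in Adam17ex/ex and -3.26 ± 0.19 for genotype under cerulein, lay close to those of Ceacam1. The antisense gene 4732471J01Rik, which spans both loci, had 0 UMIs in Adam17ex/ex cerulein, 1 in Adam17ex/ex PBS, 6 in WT cerulein and 7 in WT PBS libraries, few beside the pair; reads are sense-directed per the labels, and whether counting used strand is not given in the sources used here.

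Across the 16 libraries the levels of the 4 genes were correlated, as a choice on one shared pattern makes them. As a description over libraries that share groups, depth and RNA source, Pearson's r of log2 CPM was 0.913 between Ceacam1 and Ceacam2, 0.866 between Ceacam1 and Gprc5a, 0.853 between Ceacam1 and Slc26a9 and 0.845 between Gprc5a and Slc26a9. It was lower for Ceacam2 with Slc26a9, 0.791, and with Gprc5a, 0.725, and Spearman's rho over the 6 pairs was 0.339 to 0.868. After the group means were removed, r was 0.64 for Ceacam1 with Ceacam2, -0.01 for Ceacam1 with Gprc5a, -0.08 for Ceacam1 with Slc26a9 and -0.12 for Gprc5a with Slc26a9. For Ceacam2 it was -0.37 with Gprc5a and -0.14 with Slc26a9, so that of the 6 pairs only the one with near-identical 3′ ends still moved together within groups.

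Of the other 8232 tested genes, those most like Ceacam1 over the 16 libraries were Cldn4, which encodes a claudin of tight junctions (r = 0.954), Hmga1b (0.942), Jpt1 (0.916), Hsph1, a chaperone of the heat shock protein 110 family (0.914), and Gm15459 (0.911). Those most like Gprc5a were Dnaja1, a cochaperone of the HSP40 family (0.924), Gm49774 (0.916), Rasl10a (0.913), Mtpn (0.899) and the keratin Krt7 (0.896). Those most like Slc26a9 were Gm7816 (0.962), Actb-ps1 (0.938), the transcription factor Nfatc1 (0.932), Dnaja1 (0.929) and the claudin Cldn7 (0.929). Spearman's rho of these genes was 0.379 to 0.682 with Ceacam1, 0.695 to 0.841 with Gprc5a and 0.785 to 0.941 with Slc26a9. With the group means removed, r was -0.17 (Hsph1) to 0.73 (Jpt1) with Ceacam1 and 0.38 (Rasl10a) to 0.69 (Dnaja1) with Gprc5a. For Slc26a9 it was -0.23 (Dnaja1) to 0.59 (Gm7816). Hmga1b and Actb-ps1 resemble Hmga1 and Actb and may take their reads. Cldn4, the most alike to Ceacam1, had 10.5 ± 5.40 CPM in Adam17ex/ex cerulein, 6.72 ± 5.04 CPM in Adam17ex/ex PBS, 147 ± 42.9 CPM in WT cerulein and 5.68 ± 0.791 CPM in WT PBS libraries (SD, n = 4 each). Mtpn differed by 0.62 (log2) between WT cerulein and WT PBS, so a like pattern did not mean a like size.

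**Figure D4:**
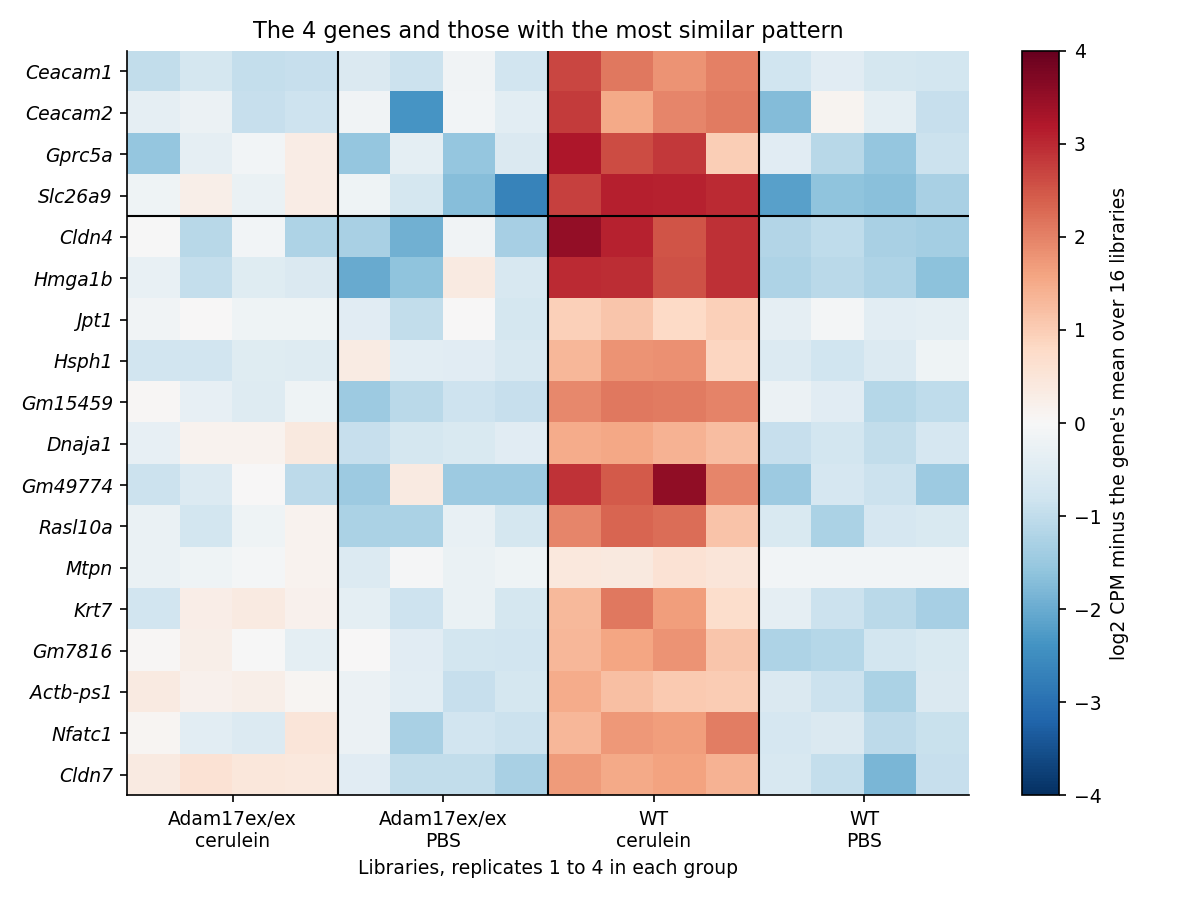
Log2 CPM of the 4 genes (top 4 rows) and of the 14 genes whose pattern was most like that of Ceacam1, Gprc5a or Slc26a9 (rows below), minus each gene's mean over 16 libraries; columns are libraries by group, replicates 1 to 4 from left to right. Every row has its highest group mean in WT cerulein, and the rows of Cldn7 and Dnaja1 are paler than those of Cldn4 and Hmga1b there.

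The closest relatives of the members could hardly be measured in these libraries. No other CEACAM gene passed the filter, and the 4 with a count (Ceacam3, Ceacam5, Ceacam16 and Ceacam20) had 1 UMI each in all 16 libraries. Of the GPRC5 family only Gprc5c was tested, and it rose by 1.35 ± 0.41 in Adam17ex/ex (edgeR adjusted p = 0.0167) and by 1.28 ± 0.31 in WT (edgeR adjusted p = 0.00229), although the Adam17ex/ex call was lost without the shallow libraries. Under cerulein it stood at 12.7 ± 3.89 CPM in Adam17ex/ex and 21.7 ± 4.88 CPM in WT libraries (edgeR adjusted p = 0.056). Of the SLC26 family only the anion exchanger Slc26a6 was tested, and its sign was opposite to that of Slc26a9. It fell by 1.25 ± 0.40 on the log2 scale in Adam17ex/ex (edgeR adjusted p = 0.0203, a call lost without the shallow libraries) and fell by 1.96 ± 0.35 in WT (edgeR adjusted p = 0.000109).

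Proteins that bind CEACAM1 or relay its signals were represented by 12 tested genes. After cerulein, 2 rose and 1 fell in Adam17ex/ex, with a median log2 fold change of -0.15 against -0.03 over all genes, and 5 rose and 0 fell in WT, with a median of 0.45 against -0.04; calls took 14.1% of all genes higher and 16.2% lower in Adam17ex/ex, and 19.8% higher and 21.3% lower in WT. The kinase Src rose in both genotypes, by 1.64 ± 0.31 in Adam17ex/ex and 1.89 ± 0.30 in WT. Ptpn6, the phosphatase SHP-1 that docks on the CEACAM1 tail, fell by 1.55 ± 0.43 in Adam17ex/ex (edgeR adjusted p = 0.00922) and was at -0.54 ± 0.40 in WT (edgeR adjusted p = 0.288). Without the shallow libraries no partner was called in Adam17ex/ex, where PBS replicate 4 alone then remained. That fit tested 9915 genes, against 8236 with all libraries, so numbers of calls are not directly comparable between the fits. Anxa2, a membrane-binding annexin, was the only partner lower in Adam17ex/ex under cerulein, at 104 ± 22.8 CPM in Adam17ex/ex and 261 ± 49.3 CPM in WT libraries (log2 -1.30 ± 0.22, edgeR adjusted p = 0.00033).

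Retinoid genes, listed because GPRC5A is also called retinoic acid induced 3, gave 8 tested members. After cerulein 1 rose and 3 fell in Adam17ex/ex (median log2 -0.21), and 2 rose and 2 fell in WT (median 0.05), where calls over all genes were 14.1% higher and 16.2% lower in Adam17ex/ex and 19.8% higher and 21.3% lower in WT. Without the shallow libraries 1 rose and 2 fell of 9 tested in Adam17ex/ex. Aldh1a1, which makes retinoic acid, fell by 1.62 ± 0.31 in Adam17ex/ex and fell by 2.16 ± 0.31 in WT, and the retinal reductase Dhrs3 fell by 2.18 ± 0.39 in Adam17ex/ex and fell by 1.56 ± 0.35 in WT. Dhrs9, a short-chain dehydrogenase, was the only list gene with a genotype difference under cerulein, and it was higher in Adam17ex/ex, at 17.9 ± 4.34 CPM against 3.92 ± 2.11 CPM in WT (log2 2.06 ± 0.42, edgeR adjusted p = 0.00318, a call lost in females alone). It had 0 UMIs in WT PBS libraries, against which the 18 UMIs in WT cerulein were at least 5.15-fold higher, with 3 counts over the group taken as the floor.

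The EGF receptor and STAT3 axis, which GPRC5A is described to restrain in lung epithelium, had 6 tested genes. After cerulein 4 rose in Adam17ex/ex (median log2 1.02) and all 6 in WT (median 1.42), where 14.1% of all genes in Adam17ex/ex and 19.8% in WT were called higher, with medians of -0.03 and -0.04. Without the shallow libraries 3 of 7 tested rose in Adam17ex/ex. Egfr rose to 50.0 ± 6.74 CPM in Adam17ex/ex cerulein, against 9.53 ± 4.76 CPM in Adam17ex/ex PBS, and to 54.3 ± 14.7 CPM in WT cerulein, against 12 ± 1.65 CPM in WT PBS libraries. Its genotype difference under cerulein was -0.17 ± 0.22 (edgeR adjusted p = 0.698). Jak2 was lower in Adam17ex/ex under cerulein by the margin of the threshold (log2 -1.11 ± 0.35, edgeR adjusted p = 0.0444), a call lost under DESeq2, under the replicate block, in females alone and on leaving out any of 7 single libraries.

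Chloride and bicarbonate secretion, the setting of SLC26A9, was covered by 14 tested genes. After cerulein 2 rose and 3 fell in Adam17ex/ex (median log2 -0.15), and 2 rose and 1 fell in WT (median -0.12), beside the same shares over all genes. Without the shallow libraries 1 rose and 1 fell of 16 tested in Adam17ex/ex. Ano1, a calcium-activated chloride channel, rose by 2.45 ± 0.23 in Adam17ex/ex and by 2.21 ± 0.21 in WT with no genotype difference called. Stk39, a kinase that controls chloride transporters, fell by 1.16 ± 0.29 in Adam17ex/ex, a call lost without the shallow libraries, and fell by 1.70 ± 0.30 in WT. Under cerulein the carbonic anhydrase gene Car2 was higher in Adam17ex/ex (log2 1.67 ± 0.38, edgeR adjusted p = 0.00566; 0.96 and not called without WT cerulein replicate 1) and the membrane linker Ezr lower (log2 -1.09 ± 0.22, edgeR adjusted p = 0.00203). Under PBS the water channel gene Aqp8 was lower in Adam17ex/ex, at 5.0 ± 2.06 CPM against 16.5 ± 7.29 CPM in WT (edgeR adjusted p = 0.0445), the only list gene called there and not called without the shallow libraries. The chloride channel gene Cftr itself had too few UMIs to be tested.

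Other epithelial surface proteins gave 23 tested genes. After cerulein 12 rose and 3 fell in Adam17ex/ex (median log2 1.11), and 15 rose and 3 fell in WT (median 1.53), where 14.1% of all genes in Adam17ex/ex and 19.8% in WT were called higher. Without the shallow libraries 11 rose and 1 fell of 27 tested in Adam17ex/ex. Cdh1, the adhesion molecule E-cadherin, rose by 2.65 ± 0.19 in Adam17ex/ex and 3.25 ± 0.19 in WT, the protease gene St14 by 1.88 ± 0.20 in Adam17ex/ex and 2.72 ± 0.19 in WT, and the tetraspanin gene Tspan1 by 2.40 ± 0.29 in Adam17ex/ex and 3.29 ± 0.25 in WT, and none of these 3 was called between genotypes. Under cerulein 6 of the 23 were lower and 2 higher in Adam17ex/ex, where 3.85% of all genes were called lower and 5.85% higher, with a median of -0.33 against 0.01. Cldn4 differed by -3.98 ± 0.28 there (edgeR adjusted p = 2.27e-09). For the difference between responses 4 of the 23 were called lower and 0 higher, where 2.27% of all genes were called lower and 3.75% higher, but this count was 1 to 4 when single libraries were left out and 1 without the shallow libraries.

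Markers of cell types were summed per library beside these results. Acinar markers were detected, 11 of 11, in every group, at 175108 to 221779 CPM in Adam17ex/ex cerulein, 145343 to 256861 in Adam17ex/ex PBS, 124151 to 189152 in WT cerulein and 183945 to 249158 in WT PBS libraries. The summed level of duct markers moved with the members, with 8 of 8 detected and sums of 426 to 479 CPM in Adam17ex/ex cerulein, 336 to 425 in Adam17ex/ex PBS, 977 to 1232 in WT cerulein and 331 to 380 in WT PBS libraries, and their part in the result was not tested. In WT cerulein most of the sum came from the keratin gene Krt19, with 651 UMIs in Adam17ex/ex cerulein, 137 in Adam17ex/ex PBS, 2520 in WT cerulein and 202 in WT PBS libraries, and from Spp1, with 305 in Adam17ex/ex cerulein, 220 in Adam17ex/ex PBS, 1122 in WT cerulein and 354 in WT PBS libraries. Muc1 ran the other way in WT, with 394 UMIs in WT cerulein against 563 in WT PBS libraries (log2 -0.71 ± 0.23, edgeR adjusted p = 0.0157), as did Onecut1, with 9 in WT cerulein against 25 in WT PBS libraries, and Cftr had 23 UMIs after cerulein in each genotype, against 3 in Adam17ex/ex PBS and 5 in WT PBS libraries. UMIs of single markers, here and in the next paragraph, are not scaled to depth, which was low in the shallow Adam17ex/ex PBS libraries. In bulk tissue, fewer cells of a type and less RNA per cell cannot be told apart. Endothelial markers, 10 of 10 detected, did not share the pattern, at 85.8 to 128 CPM in Adam17ex/ex cerulein, 111 to 203 in Adam17ex/ex PBS, 68.7 to 113 in WT cerulein and 62.5 to 94.0 in WT PBS libraries. Neutrophil markers, of which 6 to 9 of 9 measured were detected in each group, summed to 8.00 to 36.0 CPM in Adam17ex/ex cerulein, 2.58 to 20.1 in Adam17ex/ex PBS, 0.904 to 16.6 in WT cerulein and 2.10 to 42.4 in WT PBS libraries. Macrophage markers summed to 129 to 215 CPM in Adam17ex/ex cerulein and 156 to 1069 in Adam17ex/ex PBS libraries. In the same 2 groups B cell markers summed to 8.44 to 172 and 28.6 to 735 CPM, and T and NK cell markers to 0 to 8.40 and 0 to 78.4 CPM. Whether such cells had a part in the fall of Ptpn6 in Adam17ex/ex was not tested.

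Organs beside the pancreas express some members strongly, Slc26a9 in stomach and Ceacam1 in intestine. Stomach markers, with 10 or 11 of 11 measured detected in each group, summed to 3169 to 5827 CPM in Adam17ex/ex cerulein, 2891 to 6027 in Adam17ex/ex PBS, 2274 to 3354 in WT cerulein and 4275 to 6041 in WT PBS libraries. Most of those UMIs came from Tff2, with 16521 in Adam17ex/ex cerulein, 10096 in Adam17ex/ex PBS, 11321 in WT cerulein and 17138 in WT PBS libraries. In the same group order, Tff1 had 2028, 471, 507 and 807 UMIs and Gkn1 had 798, 187, 241 and 404. Gkn2 had 525, 119, 126 and 229 UMIs, and Gkn3 had 255, 56, 79 and 119. The acid pump gene Atp4a had 1 to 4 UMIs in each group and the pepsinogen gene Pgc 0 or 1. Intestinal markers, 5 measured, summed to 20.04 to 75.5 CPM in Adam17ex/ex cerulein, 6.03 to 28.6 in Adam17ex/ex PBS, 9.09 to 10.9 in WT cerulein and 16.8 to 18.8 in WT PBS libraries. Most of their UMIs came from Lgals4, with 185 in Adam17ex/ex cerulein, 28 in Adam17ex/ex PBS, 39 in WT cerulein and 66 in WT PBS libraries. Whether tissue of these organs contributed to the members' levels was not tested.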

How the data were processed

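Total RNA of frozen pancreas was primed on the poly(A) tail at 30 ng per sample, each molecule tagged with a 10 bp UMI and its sense strand read over 101 bp, per the labels' protocols. The authors deposited whole-number counts per gene and library for 24019 genes, with no normalization. Tools named in the submitters' processing notes are edgeR 3.36.0, limma 3.50.0 and R 4.1.2, with GRCm38 and mm10 as builds. How reads were aligned and counted and UMIs collapsed is not given in the sources used here. Counts come mainly from 3′ ends, which leaves isoforms merged and lets near-identical 3′ ends share reads.

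The counts were filtered with filterByExpr (minimum count 10), scaled with TMM factors and fitted by quasi-likelihood (glmQLFit, glmQLFTest) in edgeR 4.0.16 under R 4.3.3, with a coefficient for each group and a sex covariate, over 16 libraries (11 residual degrees of freedom). Benjamini-Hochberg adjustment ran over 8236 genes, and genes with an adjusted p under 0.05 were called. Procedures were tested on simulated data. Alternatives used DESeq2 1.42.0 and limma 3.58.1, other scalings, no filter, no sex covariate, females alone, a replicate block, thinning to the shallowest depth and fits without single or shallow libraries.

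Library depth was 455547 to 1476159 UMIs. The 24 pairs of libraries within groups differed beyond sampling noise (chi-square per degree of freedom 3.79 to 13.1), so each counted as 1 replicate. The labels number replicates without saying that each is a separate mouse, so p-values measure the spread between these libraries. Sex labels matched Xist and Y-linked counts in 16 of 16 libraries. The members and gene lists were chosen with earlier results of these data known. Named genes are the members, up to 4 tested genes per list with the smallest p in any contrast, and for Ceacam1, Gprc5a and Slc26a9 the 5 genes with the highest correlation. Adam17, Aqp8, Cftr, Epcam, Itgb4, Krt19, Spp1, Muc1, Onecut1, Tff1, Tff2, Gkn1, Gkn2, Gkn3, Atp4a, Pgc, Lgals4, CT010467.1 and 4732471J01Rik were named after their values were seen. Promoter windows were taken from RefSeq and matched by symbol for 3 of the 4 genes, and transcripts from GENCODE M21.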

Additional observations from a re-analysis of the deposited data

Results flagged for a closer look

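The response to cerulein differed between genotypes, by the interaction term of the edgeR fit with p adjusted over all genes, in 5 genes of the lists that are not among the 4 chosen ones. These were 4 of the 23 tested epithelial surface genes and 1 of the 12 tested CEACAM1 partners, all lower. Over all genes 2.27% were called lower and 3.75% higher in this contrast. The difference between responses, Adam17ex/ex minus WT, was -3.92 (log2) for Cldn4 (edgeR adjusted p = 0.000632), -1.98 for Anxa2 (edgeR adjusted p = 0.000845), -1.45 for Itgb4 (edgeR adjusted p = 0.0407), -1.13 for Cldn7 (edgeR adjusted p = 0.0331) and -0.92 for Epcam (edgeR adjusted p = 0.0476). Cldn4 responded by 0.54 ± 0.45 in Adam17ex/ex and 4.46 ± 0.31 in WT, and Anxa2 by 0.60 ± 0.24 in Adam17ex/ex and 2.59 ± 0.23 in WT (log2 ± SE). Itgb4 responded by 0.79 ± 0.31 in Adam17ex/ex and 2.24 ± 0.28 in WT, while Epcam and Cldn7 rose in both genotypes, Epcam by 1.33 ± 0.20 in Adam17ex/ex and 2.24 ± 0.19 in WT and Cldn7 by 1.47 ± 0.23 in Adam17ex/ex and 2.60 ± 0.21 in WT. Of 27 alternative fits, the call held in all 27 for Anxa2, in 25 for Cldn4, in 16 for Cldn7, in 12 for Itgb4 and in 7 for Epcam. In the 16 fits that left out a single library it held in 16 for Anxa2 and Cldn4, in 8 for Cldn7, in 5 for Itgb4 and in 2 for Epcam. Without the 3 shallow Adam17ex/ex PBS libraries Anxa2 and Itgb4 were called, and in females alone Anxa2 was. No library of the 4 chosen genes stood beyond Dixon's limit within its group of 4.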

How the results depend on the processing

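Over the 4 genes, 414 of 432 alternative values in the contrasts that chose them moved by less than the spread between replicates, 18 moved further and 0 called values turned. The sign of an uncalled value turned in 4 of them, all for Ceacam2 and cerulein in Adam17ex/ex (0.012 with no filter, 0.29 in females alone, 0.21 without Adam17ex/ex PBS replicate 4 and 0.092 without Adam17ex/ex cerulein replicate 3). Under PBS and for sex, 190 of 208 kept their direction, 18 turned and 0 passed the threshold. Thinning to equal depth, which left 3 members tested, moved Ceacam1 to 3.10 (cerulein in WT), -0.78 (cerulein in Adam17ex/ex), -3.59 (genotype under cerulein) and -3.88 (difference of responses), turned it to 0.29 under PBS and turned Slc26a9 to 0.12 for sex. Without the 3 shallow libraries Gprc5a was at 0.28 for cerulein in Adam17ex/ex and -4.46 for the difference of responses, and Slc26a9 at 4.20 and -1.0; under PBS they gave 0.083 for Ceacam2 and -1.97 for Slc26a9, both turned. In females alone Slc26a9 was at 2.38 for cerulein in Adam17ex/ex, -2.88 for the difference of responses and -0.19 under PBS. Values under PBS also turned for Ceacam1 (0.085) and Ceacam2 (0.013) with no sex covariate, for Gprc5a (-0.0018) with no filter and for Slc26a9 (-0.0055) under limma-voom. The cause of these shifts was not tested.

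Leaving out single libraries gave, for cerulein in Adam17ex/ex, 0.40 to 2.04 for Gprc5a and 0.99 to 2.35 for Slc26a9. It gave -4.39 to -2.97 for Gprc5a under cerulein between genotypes, and -4.33 to -2.73 for Gprc5a and -4.23 to -2.87 for Slc26a9 in the difference of responses. Under PBS it gave -0.73 to 0.20 for Ceacam2, -0.81 to 0.65 for Gprc5a and -0.12 to 1.24 for Slc26a9, and for sex -0.50 to 0.85 for Gprc5a and -0.24 to 0.17 for Slc26a9. The genes called ranged from 402 (without WT cerulein replicate 1) to 913 for genotype under cerulein, from 239 (without Adam17ex/ex cerulein replicate 2) to 624 for the difference of responses, and from 30 (without WT PBS replicate 3) to 370 (without Adam17ex/ex PBS replicate 4) for genotype under PBS.

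The genes called for cerulein in WT, 3388, became 2146 after thinning. Those for cerulein in Adam17ex/ex, 2493, became 1422 in females alone, 1533 after thinning and 1360 without the shallow libraries. Those for genotype under cerulein, 799, became 273 in females alone and 416 after thinning, and those for the difference of responses, 496, became 82 in females alone, 260 after thinning and 152 without the shallow libraries. Those for genotype under PBS, 112, became 331 with no filter, 234 under DESeq2, 406 with no sex covariate, 22 in females alone, 61 after thinning and 15 without the shallow libraries. With the replicate block they became 230; the numbers did not pair the samples (correlation of deviations between same-numbered libraries -0.22 to 0.24), so the block is an alternative only. Of 1203 alternative fits to list genes 1158 kept their call and 45 lost it, and of 297 list counts 264 stayed within 1.5 times. Gprc5a, at 0 to 8 UMIs outside WT cerulein, is limited by depth in every contrast that leaves those libraries out.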
